A study of Mus musculus with 20 samples.

Results

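The cells described here were Cd8 T cells that carried abundant Ccl5 transcript and no detected Pdcd1 transcript (Pdcd1 encodes PD-1), referred to as Ccl5-positive Cd8 T cells. Ccl5 encodes a chemokine that memory Cd8 T cells hold as ready message. A barcode was kept with at least 1500 UMIs (unique transcript tags), no fewer than 200 detected genes and a mitochondrial UMI share of 10% or less. Kept cells were then selected by UMI counts, with Cd3d, Cd3e and Cd3g summing to at least 2, Cd79a and Cd79b to at most 1, Cd8a and Cd8b1 to at least 1, Cd4 and Pdcd1 at 0, and Ccl5 at 2 or more. This gave 22959 cells, which were 89.4% of the 25691 Cd8 T cells and 23.6% of the 97181 kept cells. The other Cd8 T cells were 775 PD-1-negative cells with 0 or 1 Ccl5 UMI (3.02%), called Ccl5-low, and 1957 cells with Pdcd1 transcript (7.62%), called PD-1-positive. The levels of the selecting genes are given as descriptions only.

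Cd8 T cells that have met antigen or expanded under cytokines persist as memory cells, which carry the IL-2 and IL-15 receptor chain Il2rb, the transcription factors Eomes and Tbx21, and stored effector transcripts that naive cells lack. Central memory cells keep the lymph node entry receptor Ccr7, effector memory cells largely lack it, and cells under lasting antigen stimulation raise PD-1, Lag3 and Tox. Each clone has a rearranged T-cell receptor beta chain built from a single Trbv gene, so the share of a Trbv gene among cells is a coarse reading of clonal composition.

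Droplet single-cell RNA-seq with a 3′ chemistry had been run on unsorted live cells of 13 mice, giving 20 libraries. The labels give the strain as C57BL/6N, whereas the study's methods name C57BL/6J for the Eµ-TCL1 mice. The labels give the transgenes as Eµ-hPRMT5 (5 spleens), Eµ-hTCL1 (4 spleens and 3 lymph nodes) and Eµ-hPRMT5/hTCL1 (4 spleens and 4 lymph nodes), here named Eµ-PRMT5, Eµ-TCL1 and, for mice with both, Eµ-PRMT5/TCL1. The mouse number of Eµ-PRMT5/TCL1 spleen 1 and node 2 ends in RT, the study's abbreviation for Richter's transformation. Whether the mark has that meaning was not checked, and both libraries were treated like the others of their groups. Both human transgenes are driven in B cells by an immunoglobulin heavy-chain promoter and Eµ enhancer, so T cells were not their target. B cells were not the main population in every library. In Eµ-PRMT5 spleen 5, 490 of 5977 kept cells were B cells, and Ccl5-positive cells were 73.9% of kept cells. Mice were sampled when ill enough to meet the removal criteria, the nodes were submandibular, both tissues came from the same animal in 7 mice, and wild-type mice are not analysed here. Ccl5-positive cells numbered 6365 in the spleens of Eµ-PRMT5, 3829 in those of Eµ-TCL1 and 2326 in those of Eµ-PRMT5/TCL1 mice, and 4715 and 5724 in the nodes of the latter genotypes.

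Libraries held 9348094 to 72440894 UMIs in all, and the median UMIs per Ccl5-positive cell ran from 2767 to 7144. Libraries shared 6037 barcodes over all pairs against 6043.4 expected from the barcode pool, and Ccl5-positive cells shared 315 against 323.4. Eµ-PRMT5 spleen 4 and Eµ-PRMT5/TCL1 node 1 stood apart, with 40 and 16 Ccl5-positive cells, and Eµ-PRMT5 spleen 5 alone held 4418 of the 22959. B cells, which should lack Ccl5, had 2 or more Ccl5 UMIs in 0 to 2.73% of cells in 19 libraries and in 10.4% in Eµ-PRMT5 spleen 5, where the median B cell had 7312 UMIs. Summed over the class in a library and scaled to a total of 1000000 UMIs (CPM), Ccl5 stood at 3879 to 17481 in the selected cells and at 1.26 to 71.3 in B cells. Gamma-delta T-cell markers summed to at most 14.2 CPM outside Eµ-PRMT5/TCL1 node 1, where they reached 46.7, invariant T-cell markers to at most 3.45, and B-cell markers to 81.2 to 1808, against 9154 to 37921 in the B cells.

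The Ccl5 level separated most Cd8 T cells clearly. Among PD-1-negative Cd8 T cells, 608 (2.56%) had no Ccl5 UMI and 167 (0.704%) had 1. Just inside the limit, 260 cells (1.10%) had 2 or 3 Ccl5 UMIs, and 1147 (4.83%) had 4 to 9. A further 6516 cells (27.5%) had 10 to 29 and 15036 (63.4%) had 30 or more. Cells with 1 UMI had a median depth of 3307 UMIs, those with 2 or 3 a median of 3118.5, and those with 30 or more a median of 5147.5.

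**Figure D1:**
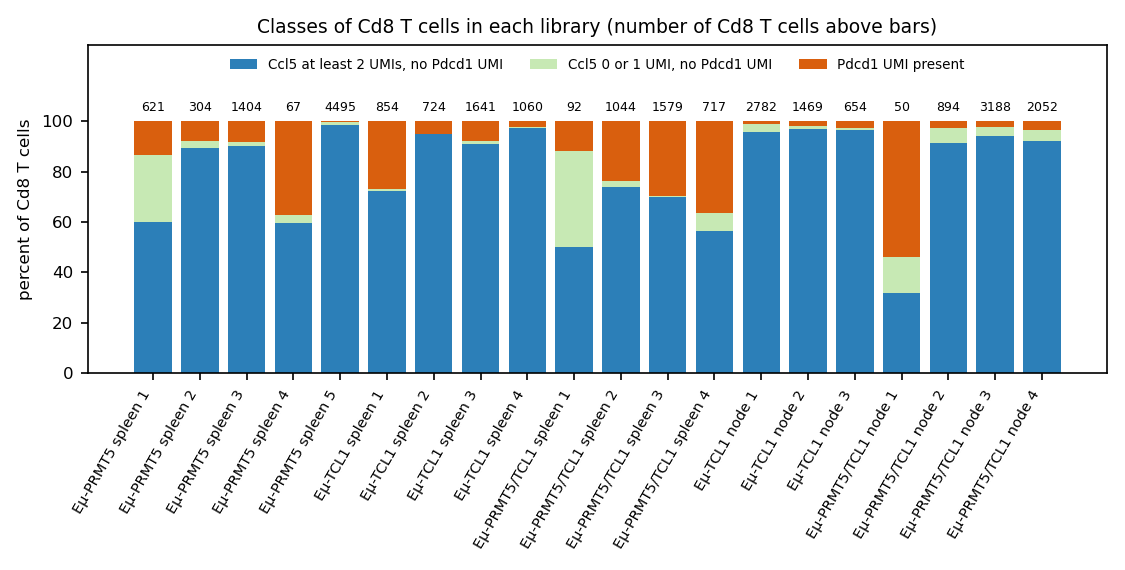
Percent of Cd8 T cells (y axis) in the Ccl5-positive, Ccl5-low and PD-1-positive classes in each of the 20 libraries (x axis), with the number of Cd8 T cells above each bar. Ccl5-positive cells fill 32% to 98.3% of a bar.

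In Eµ-PRMT5 spleens 1 to 5 the Ccl5-positive cells were 60.1, 89.1, 89.96, 59.7 and 98.3% of Cd8 T cells. Eµ-TCL1 spleens 1 to 4 had 72.4, 94.8, 90.9 and 97.5%, and the 4 spleens of Eµ-PRMT5/TCL1 mice had 50, 73.9, 70.0 and 56.3%. Ccl5-positive cells thus made up the majority or an even share of Cd8 T cells in every spleen, with the lowest group mean in Eµ-PRMT5/TCL1. Eµ-TCL1 nodes 1 to 3 held 95.7, 96.8 and 96.3% Ccl5-positive cells, and Eµ-PRMT5/TCL1 nodes 1 to 4 held 32, 91.2, 94.1 and 92.3%. In Eµ-PRMT5/TCL1 node 1, 86.0% of Cd8 T cells had 2 or more Ccl5 UMIs with Pdcd1 disregarded, and 54.0% were PD-1-positive. The Eµ-PRMT5/TCL1 spleens averaged 62.5% ± 11.2 (SD, n = 4) and the Eµ-TCL1 spleens 88.9% ± 11.3 (SD, n = 4), a difference of -26.3 points with an exact two-sided permutation p of 0.0571 (0.286 after Benjamini-Hochberg adjustment over the 10 share comparisons). The Eµ-PRMT5 spleens averaged 79.4% ± 18.2 (SD, n = 5), which differed from the Eµ-TCL1 spleens by -9.44 points (exact permutation p = 0.333, adjusted 0.5). Eµ-PRMT5/TCL1 spleens lay 16.9 points below Eµ-PRMT5 spleens on average, a difference of -16.9 with an exact permutation p of 0.159 (adjusted 0.397). The nodes of the 2 genotypes did not overlap (96.3% ± 0.540, n = 3, against 77.4% ± 30.3, n = 4), yet an exact permutation p of 0.0571 is the smallest this design allows, and the difference of -18.9 points shrank to -3.77 without Eµ-PRMT5/TCL1 node 1. In the 7 mice with both tissues, the share was higher in the node in 5, by 11.9 points on average (85.5% ± 23.7 against 73.5% ± 17.7, exact sign-flip permutation p = 0.234, adjusted 0.469). None of the 10 comparisons passed, including the 5 on the share of all kept cells, among which the node minus spleen difference was 17.8 points (30.7% ± 23 against 12.9% ± 8.14, higher in 5 of 7 mice, exact permutation p = 0.109, adjusted 0.365). Mean shares of all kept cells in the spleen were 26.8% ± 28.5 for Eµ-PRMT5, 16.9% ± 9.48 for Eµ-TCL1 and 13.2% ± 10.8 for Eµ-PRMT5/TCL1 mice, and in the node 40.1% ± 25.9 and 23.6% ± 21.4 for the latter genotypes. The direction of that measure between the Eµ-PRMT5 and the Eµ-TCL1 spleens rested on Eµ-PRMT5 spleen 5, being 9.88 points with it and -1.90 without it. The same measure in Eµ-PRMT5/TCL1 minus that in Eµ-TCL1 spleens was -3.75 points, changing sign to 0.578 without Eµ-TCL1 spleen 3 and to 0.380 without Eµ-PRMT5/TCL1 spleen 1.

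Across libraries the Ccl5-positive cells shared a profile of memory transcripts together with the node-entry receptor Ccr7. Ctla2a, an inhibitor of cysteine proteases that was a defining marker, ranged from 248 CPM to 1311 CPM with a median of 583. Il2rb ranged from 238 to 1043 CPM with a median of 433, and Eomes from 119 to 421 CPM with a median of 175.5. Ly6c2, a surface glycoprotein of memory Cd8 cells, ranged from 187 to 1047 CPM with a median of 746. These genes were thus detected in all 20 libraries, whereas B cells had at most 2.81 CPM of Ctla2a and 2.73 CPM of Eomes. Il2rb and Ly6c2 were less restricted, with a UMI in up to 31.3% and 13.3% of the B cells of a library. Gzmm, the granzyme among the defining markers, ranged from 0 to 284 CPM with a median of 79.4, and was at 0 in Eµ-PRMT5/TCL1 node 1.

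After each cell was thinned to 1500 UMIs, 54.6% of cells in the median library had a Ctla2a UMI (30.4 to 75.7% over 19 libraries, 87.2% at full depth), against 0.0885% of B cells. For Il2rb the median was 45% (79.4% at full depth) against 3.31% of B cells, and for Eomes it was 21.7% (50.4%). Tcf7, a transcription factor of naive and long-lived memory cells, was found in 37.8% of cells (67.4% at full depth) against 0.29% of B cells. Ccr7 was found in 54.4% (78.8%), but also in 19.3% of B cells, which express it themselves. Among cytotoxic transcripts, Nkg7 was found in 34.7% of cells in the median library (65.2% at full depth), whereas those of granzymes were sparser and less even. Gzmb was found in 3.89% of cells in the median library, with a range of 0.0751 to 75%, and Gzmk, another granzyme, in 2.38%. Klrg1, a marker of terminal effector cells, was found in 0.158%. Klrd1 and Klrc1, which pair as the CD94 and NKG2A receptor, were found in 19.6% and 26%.

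**Figure D2:**
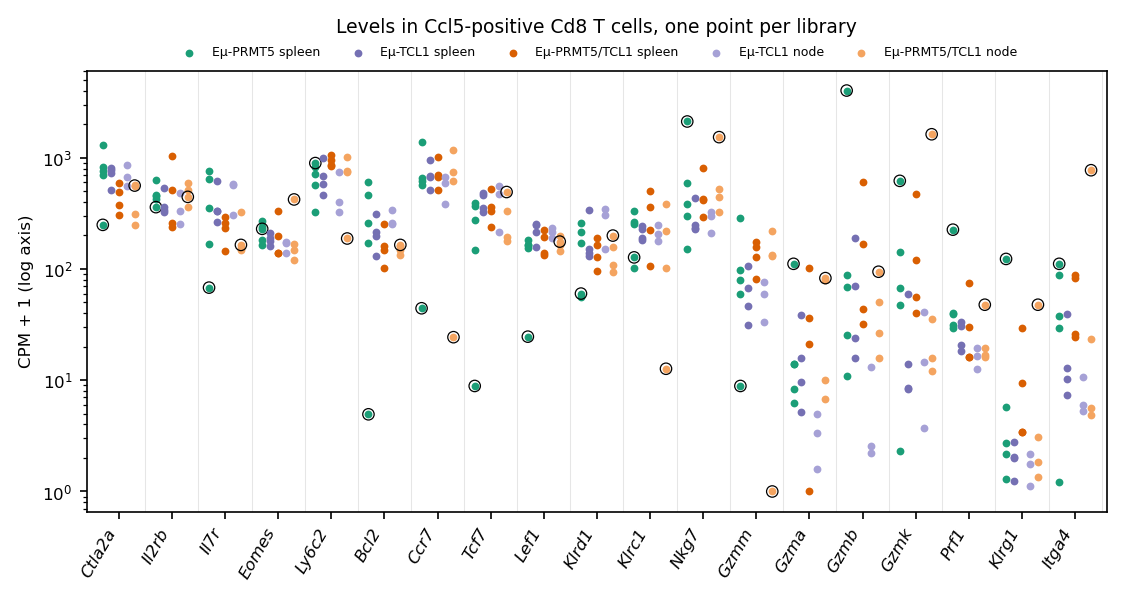
Level of 19 genes in Ccl5-positive cells (y axis, CPM + 1 on a log axis), with a point for each library and columns by gene. Black circles mark Eµ-PRMT5 spleen 4 and Eµ-PRMT5/TCL1 node 1, which lie apart for Gzmb (4015 CPM in the former), Gzmk (1624 CPM in the latter) and Ccr7 (43.3 and 23.4 CPM).

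A pair of libraries departed from this profile. In the 40 Ccl5-positive cells of Eµ-PRMT5 spleen 4, Gzmb stood at 4015 CPM, whereas the other Eµ-PRMT5 spleens held 9.89 to 87.5 CPM. Nkg7, a granule protein, stood there at 2116 CPM, and perforin (Prf1) at 225 CPM. Ccr7 was at 43.3 CPM, Tcf7 at 7.88 CPM and the survival gene Bcl2 at 3.94 CPM, the lowest Tcf7 and Bcl2 of the 20 libraries. In the 16 cells of Eµ-PRMT5/TCL1 node 1, Gzmk stood at 1624 CPM, the integrin chain Itga4 at 771 CPM and Ccr7 at 23.4 CPM. The spleen of that mouse, Eµ-PRMT5/TCL1 spleen 4, held 610 CPM of Gzmb and 469 CPM of Gzmk but kept Ccr7 at 1004 CPM. At the other end, the 4418 cells of Eµ-PRMT5 spleen 5 held 1.31 CPM of Gzmk, 0.211 CPM of Itga4, 1378 CPM of Ccr7 and 600.3 CPM of Bcl2.

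Against Ccl5-low Cd8 T cells of the same library, the Ccl5-positive cells were higher in most of the listed natural killer receptor and memory genes and lower in most of the listed immediate early genes. The comparison used 12 libraries of 10 mice with at least 20 cells of each class, summing counts by library and class. In edgeR's quasi-likelihood test with library as a block, 507 of 8194 genes passed an adjusted p of 0.05 (6.19%), 319 higher (3.89%) and 188 lower (2.29%), with a median log2 difference of 0.03 over all genes. Scaling by library totals moved that median by -0.13 and gave 173 higher and 270 lower, and DESeq2 gave 233 and 219. The count fell to 223 without Eµ-PRMT5 spleen 1, 300 without Eµ-PRMT5/TCL1 node 3 and 326 without Eµ-TCL1 node 1.

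Klrc1, on chromosome 6 (GRCm38 chr6:129666015-129678973), encodes the NKG2A receptor and led the named genes. Its level in Ccl5-positive cells was 101 CPM in the lowest, 233 in the median and 506 in the highest library, and in Ccl5-low cells 0, 14.7 and 187 CPM. Klrc1 was higher in 12 of 12 libraries, with a log2 difference of 3.07 and an SE of 0.39 (edgeR adjusted p = 7.73e-05), although the ranges of the classes overlapped. Klrk1, the activating receptor NKG2D, had 24.4, 75.7 and 254 CPM (lowest, median and highest) against 0, 6.61 and 81.3 CPM. It was higher in 11 of 12 libraries, by 2.77 on the log2 scale (SE 0.41, adjusted p = 0.00025). Fasl, the death ligand, had 23.2, 83.8 and 261 CPM against 0, 10.4 and 96.6 CPM, and was higher in 12 of 12 libraries, with a log2 difference of 2.53. Of 12 tested natural killer receptor genes, 9 rose and none fell, with a median log2 difference of 2.80. That list held Klrb1c, which had no UMI in any Ccl5-low library, and without it 8 of 11 rose (median 2.77). With 3 counts over those libraries as floor, Klrb1c was at least 5.41-fold higher in Ccl5-positive cells, and the list's median with that bound was 2.60. DESeq2 called 7 and library totals 8 of the same 12. Klrg1 (log2 0.75), Cd160 (0.81) and Klra3 (1.13) did not pass. Natural killer cell markers outside the T lineage moved in part with this list, with Fcer1g higher by 2.07, Klra8 at least 8.61-fold higher over the same floor and Tyrobp at 0.11 and not passing, and their part in the result was not tested.

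Among the memory genes, 13 of 17 tested rose and none fell (median log2 difference 1.27), and the count was 13 under DESeq2 and library totals too. Without Ctla2a, a defining marker that this list holds, 12 of 16 rose. Il2rb had 238, 440.0 and 1043 CPM (lowest, median and highest library) against 0, 167 and 792 CPM in Ccl5-low cells, and rose by 1.22 on the log2 scale. The T-box factors Eomes and Tbx21 rose by 1.27 and 1.42, the IL-18 receptor chains Il18r1 and Il18rap by 1.35 and 1.72, Cd44 by 1.33, Cxcr3 by 1.41, Samd3 by 1.60 and Bcl2 by 0.72. Ly6c2 rose by 1.73, from a mean of 308 CPM to 704. Il7r, the IL-7 receptor chain, had a log2 difference of 0.69 and did not pass, nor did Id2, Ly6a and Runx3. Ctla2a, with 250, 622 and 863 CPM against 0, 118 and 517, and Gzmm, with a mean of 118 CPM against 53.5, also stood higher, and as defining markers both are given as descriptions.

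Of 15 naive-cell genes 4 fell and none rose, with a median of -0.05, close to that of all genes. Those that fell were the growth factor binding protein Igfbp4 (log2 -3.88), Dapl1 (-2.91), the actin crosslinker Actn1 (-1.34) and the transcription factor Lef1 (-0.51). Ccr7 (-0.35), Tcf7 (-0.03) and Satb1 (0.25) did not pass the test. Igfbp4 had a median of 3.92 CPM in Ccl5-positive and 39.1 CPM in Ccl5-low cells and was lower in 10 of 12 libraries. Dapl1 was lower in 7 of 12 libraries and higher in 4. Ccr7, which did not pass, was nevertheless lower in 10 of 12 libraries (medians of 681.5 against 1250 CPM), and Tcf7 in 9 of 12 (331 against 375 CPM).

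The cytotoxic list had 9 of 16 tested genes higher and 1 lower with a median of 0.81, but 3 higher under DESeq2 and 5 under library totals. Without the defining marker Gzmm it had 8 of 15 higher (median 0.75). Gzmk rose by 1.86, Gzmb by 1.97, the granzyme inhibitor Serpinb9 by 1.26, Nkg7 by 0.96 and Ctsw by 0.86, and Tnf fell by 1.51. Gzmb had a median of 34.2 CPM against 5.61, and was higher in 12 of 12 libraries. Gzma (0.66), Prf1 (0.75) and Ifng (0.38) did not pass. Of 16 homing receptor genes 7 were higher and 4 lower (median 0.56). The chemokine receptors Cxcr6 (2.42), Ccr2 (2.25) and Cxcr4 (0.98), the sphingosine receptor S1pr5 (2.32) and the integrins Itgb1 (1.25) and Itgal (0.60) were among those that rose. The gut-homing receptor Ccr9 (-4.88), the integrin Itgae (-4.35), Itga4 (-1.78) and the retention receptor Cd69 (-0.71) fell. Ccr9 was lower in 6 and higher in 4 of 12 libraries, and was at 0 in 6 of the Ccl5-low libraries. Itgae was near absent in Ccl5-positive cells, with a median of 0.675 CPM against 14.8.

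Of 13 immediate early genes 8 fell and none rose, with a median of -0.87. Fos, a rapid transcription factor, had 5.32, 48.1 and 208 CPM in Ccl5-positive cells and 0, 308 and 1018 CPM in Ccl5-low cells. It was lower in 11 of 12 libraries, with a log2 difference of -2.25. Jun (-1.81), Zfp36 (-1.08), Fosb (-1.05) and Dusp1 (-0.95) fell too. Id3, a repressor of helix-loop-helix factors, was lower in 12 of 12 libraries, by 2.39 on the log2 scale, with a log2 difference of -2.39 and means of 17.1 against 114 CPM. Of 12 inhibitory receptor and exhaustion genes Tigit rose (1.14) and Ctla4 (-2.26), Ikzf2 (-2.05) and Tox (-0.92) fell. Interferon response genes had 3 higher and 6 lower of 18, with Ifit3 (1.91) and Ifit1 (1.72) among the former. None of 14 cell cycle genes passed (median -0.52), by edgeR or DESeq2. Lyz2, a myeloid transcript, had a log2 difference of 2.44 that became -0.67 when cells above 2 times the library's median UMIs were left out, and B-cell markers (2 of 7 lower, median -1.63) moved with the class as well. Their part in these differences was not tested.

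**Figure D3:**
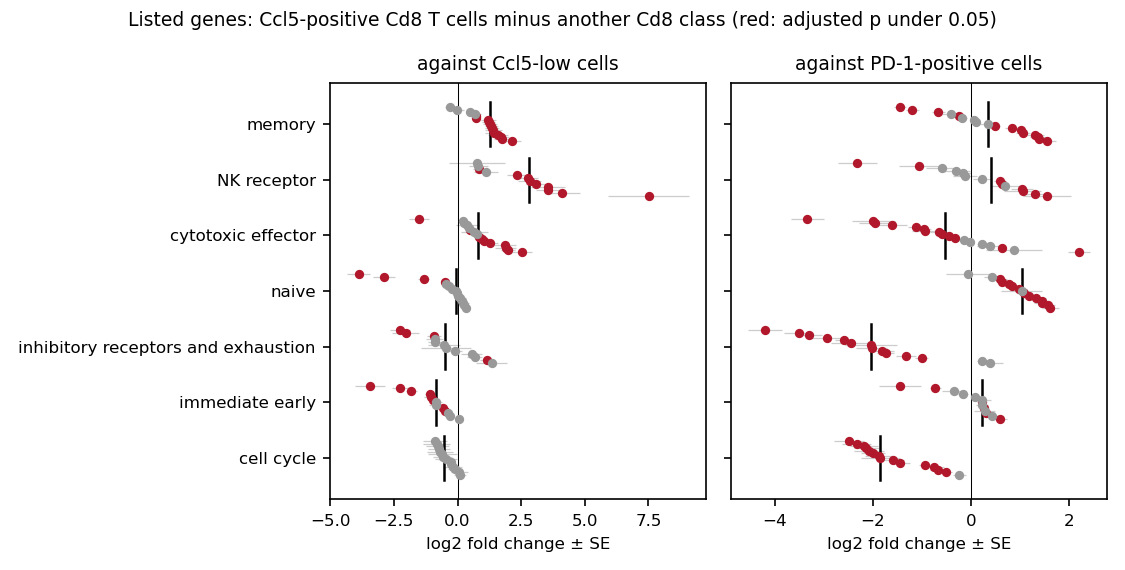
Log2 difference (x axis, error bars SE) of each tested gene by list (rows) for Ccl5-positive against Ccl5-low cells (12 libraries) and against PD-1-positive cells (17 libraries). Red points pass an adjusted p of 0.05 in edgeR and black bars are list medians, such as 1.27 for memory genes (Ctla2a included) in the former comparison and -2.04 for inhibitory receptors in the latter. The point farthest to the right in the former is Klrb1c, without UMIs in Ccl5-low cells, whose fitted value depends on the prior count and is no bound.

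Against PD-1-positive Cd8 T cells the Ccl5-positive cells were lower in most of the listed inhibitory receptor, exhaustion and cell cycle genes and higher in most naive-associated genes. In 17 libraries of 13 mice, 3599 of 10686 genes passed (33.7%), 1861 higher (17.4%) and 1738 lower (16.3%), with a median log2 difference of 0.05. Scaling by library totals moved the median by -0.24 and gave 734 higher and 3577 lower, DESeq2 gave 1414 and 2021, and thinning to 1500 UMIs per cell left 1822 genes. Of 14 inhibitory receptor and exhaustion genes 12 fell and none rose, with a median of -2.04, also 12 under both other scalings. Lag3, an inhibitory receptor, had 0, 1.94 and 134 CPM in Ccl5-positive cells (lowest, median and highest library) and 0, 120.1 and 521 CPM in PD-1-positive cells. Lag3 was lower in 16 of 17 libraries, with a log2 difference of -4.20. Tox, the factor of the exhausted state, had 2.53, 11 and 38.2 CPM against 10.5, 113 and 193. Its log2 difference was -2.59 (means 14.9 ± 9.15 and 94.1 ± 52.6 CPM, SD, n = 17, edgeR adjusted p = 5.13e-10). Ctla4 (-3.31), Ikzf2 (-3.52) and Rgs16 (-3.89) were lower in 17 of 17 libraries each. Of 15 cell cycle genes 14 fell (median -1.85). The proliferation antigen Mki67 had a median of 9.21 CPM against 40.2. The myeloid markers Elane and Mpo had log2 differences of 1.80 and 1.84, which became -1.15 and -1.51 under DESeq2. The part of transcripts from other cells in the differences from PD-1-positive cells was not tested.

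Naive-associated genes had 12 of 15 higher and none lower (median 1.03), 12 also under DESeq2 and under library totals. Ccr7 had 43.3, 662 and 1378 CPM against 8.99, 267 and 1243 CPM, was higher in 17 of 17 libraries and rose by 1.45 on the log2 scale. The chromatin organiser Satb1 rose by 1.61 and Bcl2 by 1.39 (232 against 113 CPM). Without the defining marker Gzmm, 1 of 17 cytotoxic genes was higher and 11 were lower (median -0.60). Gzmk had 1.31, 39.2 and 619 CPM against 127, 533 and 1295 CPM and was lower in 16 of 17 libraries, by 3.34 on the log2 scale (log2 -3.34). As a description, Gzmm had means of 103 against 39.7 CPM. Itga4 was lower, with a log2 difference of -3.26 (33.3 against 265 CPM), and Klrg1 likewise (-2.32). Memory genes without Ctla2a had 7 higher and 4 lower of 16 (median 0.22) and natural killer receptors 6 and 2 of 14 (0.41). Among the memory genes Eomes was lower by edgeR's test, with a log2 difference of -0.25 (adjusted p = 0.0337, lower in 15 of 17 libraries, medians of 176 against 253 CPM). Il2rb had a log2 difference of -0.19 and did not pass (adjusted p = 0.160), with medians of 362 against 579 CPM. Ccl5 itself, a selecting gene, had a median of 10530 CPM against 11770 and was the lower in 13 of 17 libraries.

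Between genotypes few genes passed in the Ccl5-positive cells, in groups of 3 to 5 libraries where differences can be missed. In a fit over the 19 libraries with at least 20 such cells, which leaves out Eµ-PRMT5/TCL1 node 1, 6 of 10447 genes passed between Eµ-PRMT5 and Eµ-TCL1 spleens (0.0574%), 3 higher and 3 lower (0.0287% each), and 871 had an unadjusted p under 0.05. That fit takes both tissues of 6 mice without a mouse term, so the spread it pools is partly within mice. With the 2 groups fitted alone, a library from each mouse, Grb7 was the single gene that passed (adjusted p = 0.0144), and Hspa1a (0.210) and Jun (0.206) did not. Read from Xist and Y-linked UMIs, the Eµ-PRMT5 spleens came from 4 females and 1 male and the Eµ-TCL1 spleens from 1 female and 3 males. With sex as a covariate 13 genes passed, 4 of the 6 among them, while Hspa1a (adjusted p = 0.0893) and Hspa1b (0.0645) did not. Hspa1a, a heat-inducible chaperone, stood at 116, 208, 125, 118 and 19.4 CPM in spleens 1 to 5 of Eµ-PRMT5 and at 10.8, 12.6, 7.97 and 20.4 CPM in spleens 1 to 4 of Eµ-TCL1 mice. The groups overlapped through Eµ-PRMT5 spleen 5, and the log2 difference was 3.18 (SE 0.57, edgeR adjusted p = 0.0391). Its neighbour Hspa1b, which shares near-identical sequence with it so that the split of reads between them is uncertain, rose by 2.47 (means 15.3 and 2.93 CPM). Jun stood at 97, 57.8, 70.5, 138 and 55.9 CPM in the Eµ-PRMT5 and at 28.1, 14.3, 27.4 and 19.7 CPM in the Eµ-TCL1 spleens, without overlap, and rose by 1.82 (SE 0.30, edgeR adjusted p = 0.0240). Of the 10447 genes, 315 did not overlap between these groups. The calls of Hspa1a and Jun lay near the threshold. The adjusted p of Hspa1a ran from 0.00278 to 0.165 with each spleen of the comparison left out in turn and passed only without Eµ-PRMT5 spleen 5, and that of Jun ran from 0.0178 to 0.103 and was 0.0606 with library totals. The B cells of the same libraries held 47.5 to 990 CPM of Hspa1a in Eµ-PRMT5 against 15 to 65.4 CPM in Eµ-TCL1, and 127 to 403 CPM of Jun against 67.1 to 146 CPM, ranges that lay higher in Eµ-PRMT5 but overlapped and were not tested. Heat shock genes had 2 of 8 higher (median 0.93) and immediate early genes 1 of 13 (median 1.10), against a median of 0.00 over all genes.

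Grb7, Nfe2 and Wfdc2, chosen for naming after their values were seen, were lower in Eµ-PRMT5 spleens. Grb7, an adaptor of receptor tyrosine kinases (GRCm38 chr11:98446394-98455373), stood at 1.29, 0.521, 0.924, 0 and 0.211 CPM in the Eµ-PRMT5 and at 29.6, 10.5, 20.1 and 15.7 CPM in the Eµ-TCL1 spleens. The groups did not overlap, with a log2 difference of -5.05 (SE 0.55, edgeR adjusted p = 0.000245). The spleens of Eµ-PRMT5/TCL1 mice held 0, 18.3, 17.5 and 23.6 CPM, where the lowest came from 46 cells, and Grb7 was the sole gene of 10447 (0.00957%) that differed from Eµ-PRMT5 spleens (log2 4.85, adjusted p = 0.000661). PD-1-positive cells showed 0 to 8.99 CPM of Grb7 in Eµ-PRMT5 and 22.8 to 62.8 CPM in Eµ-TCL1 spleens, whereas B cells held 1.24 to 14.8 and 1.86 to 14.2 CPM. Nfe2, a leucine zipper factor known from erythroid cells, differed by -3.88 on the log2 scale (means 1.58 and 20.3 CPM) and Wfdc2, a secreted protease inhibitor, by -4.09 (1.27 and 9.58 CPM). In the same Ccl5-positive cells, erythroid markers summed to 0, 0.506 and 191 CPM (lowest, median and highest) in the former and 6.59, 105 and 208 CPM in the latter genotype. Myeloid markers summed to 103, 157 and 2254 against 138, 1691 and 4183 CPM, and the part of either list in the result was not tested. The count of 6 fell to 1 when spleen 1 or 3 of Eµ-PRMT5 or spleen 1 of Eµ-TCL1 mice was left out, and to 2 when spleen 2 of either genotype was. With the spleens of Eµ-PRMT5/TCL1 and Eµ-PRMT5 fitted alone, 0 of 8986 genes passed, and Grb7 did not pass the low-count filter of that fit and was not tested. The single call against Eµ-PRMT5/TCL1 became 3 without Eµ-PRMT5 spleen 4 and 2 without Eµ-PRMT5 spleen 5. With both Eµ-PRMT5 spleens 4 and 5 left out, 8 and 3 genes passed in the respective comparisons.

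For Eµ-PRMT5/TCL1 against Eµ-TCL1 spleens no gene passed (0 of 10447 in edgeR, 477 at an unadjusted p under 0.05, 0 in DESeq2). The amino acid enzyme Psat1 came nearest (log2 1.09, 41.8 against 18.7 CPM, without overlap, adjusted p = 0.529). Of the 10447 genes, 305 did not overlap between these groups. Between the nodes of these genotypes none passed in edgeR (0%), with 1485 at an unadjusted p under 0.05, 24 in DESeq2 and 63 in edgeR without Eµ-TCL1 node 3. With sex as a covariate 160 passed. Sex was uneven, with 3 females and 1 male among the Eµ-PRMT5/TCL1 and 1 female and 2 males among the Eµ-TCL1 nodes. The male Eµ-PRMT5/TCL1 node was node 1, which the fit left out, so the 3 fitted nodes of that genotype were all female. Sex and genotype were thus nearly confounded among the nodes fitted. The signalling adaptor Rassf2 (log2 -1.29, 12.7 against 37.1 CPM), the neuropeptide receptor Vipr1 (-1.64, 8.62 against 32.1 CPM) and the SLAM-family receptor Slamf7 (1.54, 19 against 7.87 CPM) had the lowest p, each without overlap between groups and with an edgeR adjusted p of 0.180. Lack of overlap was common between the 3 and 3 nodes fitted, in 3098 of the 10447 genes. The memory, naive and cytotoxic lists held no passing gene in any of these genotype comparisons.

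Whether the difference between Ccl5-positive and Ccl5-low cells itself depended on the group was tested as an interaction over 9347 genes. The Eµ-TCL1 spleens entered this fit with 1 library of at least 20 Ccl5-low cells, assumed to vary like the other groups, so tests against them compare that library and not the genotype. In those tests 2 genes passed for Eµ-PRMT5 spleens and 2 for those of Eµ-PRMT5/TCL1 mice (0.0214% each), the haemoglobin genes Hbb-bs and Hbb-bt of red cells, and no group difference is drawn from them. Among the Ccl5-low cells of the 12 libraries, Hbb-bs was at 0 in 10 and Hbb-bt in 11, with highest values of 9041 and 1423 CPM. The first count was 0 without Eµ-PRMT5 spleen 3. Without Eµ-PRMT5/TCL1 spleen 1 the second count was 50, and the counts of 0 for Eµ-PRMT5/TCL1 against Eµ-PRMT5 spleens and for tissue became 19 and 24, the latter being 1 without Eµ-PRMT5/TCL1 node 4.

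Within mice, Ccl5-positive cells of the node differed from those of the spleen in a set of genes whose size varied with the processing and which did not include the memory, naive or cytotoxic lists. The fit used 6 mice, as the node of the seventh held 16 cells, with mouse as a block. Of 10444 genes 102 passed (0.977%), 30 higher in the node (0.287%) and 72 lower (0.689%), and library totals gave 14 and 69. The count depended on the processing, being 310 in DESeq2, 306 without a low-count filter, 36 with cells thinned to 1500 UMIs, 33 with only cells without a Cd79 UMI, 24 with at least 50 cells, 13 without the mouse block and 12 with an upper limit on UMIs per cell. Of 18 memory, 15 naive and 18 cytotoxic genes none passed (medians -0.16, 0.06 and -0.21, against -0.01 over all genes), while DESeq2 called 2, 1 and 3 of them. The count was 188 without the mouse of Eµ-TCL1 spleen 2, 22 without that of Eµ-TCL1 spleen 4, 11 without that of Eµ-PRMT5/TCL1 spleen 2 and 24 without that of Eµ-PRMT5/TCL1 spleen 1.

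Fam177a had 33.5 to 88.7 CPM in the nodes and 4.20 to 36.5 CPM in the spleens, higher in 6 of 6 mice (log2 1.43, means 61.0 ± 20.8 and 22.9 ± 10.7 CPM, SD, n = 6, edgeR adjusted p = 0.0048). Rbm38, an RNA-binding protein, had 97.8 to 242 CPM in the nodes and 37.8 to 108 CPM in the spleens (log2 1.19). Nrarp, a target and inhibitor of Notch, had 22.8 to 117 CPM against 8.39 to 32.4 CPM (log2 1.51). All 3 were higher in the node of every mouse of the fit although their ranges overlapped. Saraf, a regulator of calcium entry, was among the 106 of 10444 genes without overlap, with 427 to 657 CPM against 246 to 352 CPM (log2 0.89). Jun (1.12), Hist1h2ap (1.41), Tdrp (1.03) and Hsph1 (0.91) rose in 6 of 6 mice too. In B cells of the same libraries Fam177a, Hist1h2ap, Jun and Saraf were also higher in the node in 6 of 6 mice, Nrarp in 4 and Rbm38 in 2.

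Tnfrsf9, the costimulatory receptor 4-1BB, had 4.05 to 45.3 CPM in the nodes and 35.0 to 96.5 CPM in the spleens, lower in 6 of 6 mice (log2 -1.78), and was lower in B cells in 2 of 6. The inflammatory chemokine receptor Ccr2 had 8.59 to 48.1 CPM against 24.4 to 91.3 CPM and was lower in 5 of 6 mice (log2 -1.44). Among homing and exhaustion genes Cxcr6 (-1.03), Itga4 (-1.86) and the ectonucleotidase Entpd1 (-1.92) fell as well. The largest falls among the named genes were those of Prtn3 (-6.77), Lyz2 (-4.44), Ifitm3 (-2.85), Lgals3 (-2.16) and Tyrobp (-2.005), of which Prtn3 and Lyz2 are best known from myeloid cells. Of 7 tested myeloid markers 4 and of 4 haemoglobin genes 4 were lower, the summed myeloid markers being 96.5 to 6014 CPM in Eµ-PRMT5/TCL1 spleens and 84.3 to 1303 CPM in their nodes. Prtn3 was lower in the node in B cells in 6 of 6 mice and Lyz2 and Tyrobp in 5 of 6, Ifitm3 in 4 and Lgals3 in 3, and the part of transcripts from other cells in the Ccl5-positive differences was not tested.

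Rps27rt, a retrotransposed ribosomal protein gene (GRCm38 chr9:114982366-114982739), had the lowest p of the tissue comparison. It had 49.2 to 66.5 CPM in the nodes and 138 to 197 CPM in the spleens (log2 -1.47, edgeR adjusted p = 0.000516), and in B cells 32 against 108 CPM on average, lower in 6 of 6 mice. Outside the fit, Eµ-PRMT5/TCL1 spleen 4 had 30.9 CPM, near the nodes, whereas the other 12 spleens had 110.3 to 274 CPM. That library also had the highest spleen values of Saraf (1139 CPM) and Rbm38 (329.9 CPM). The labels give no preparation batch, so tissue and preparation cannot be told apart here. The tissue difference did not itself differ detectably between genotypes, with 0 of 10444 genes passing in edgeR (0%), 683 at an unadjusted p under 0.05 and 1 in DESeq2. That count was 1367 without the mouse of Eµ-TCL1 spleen 4 and 4 without that of Eµ-PRMT5/TCL1 spleen 2.

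**Figure D4:**
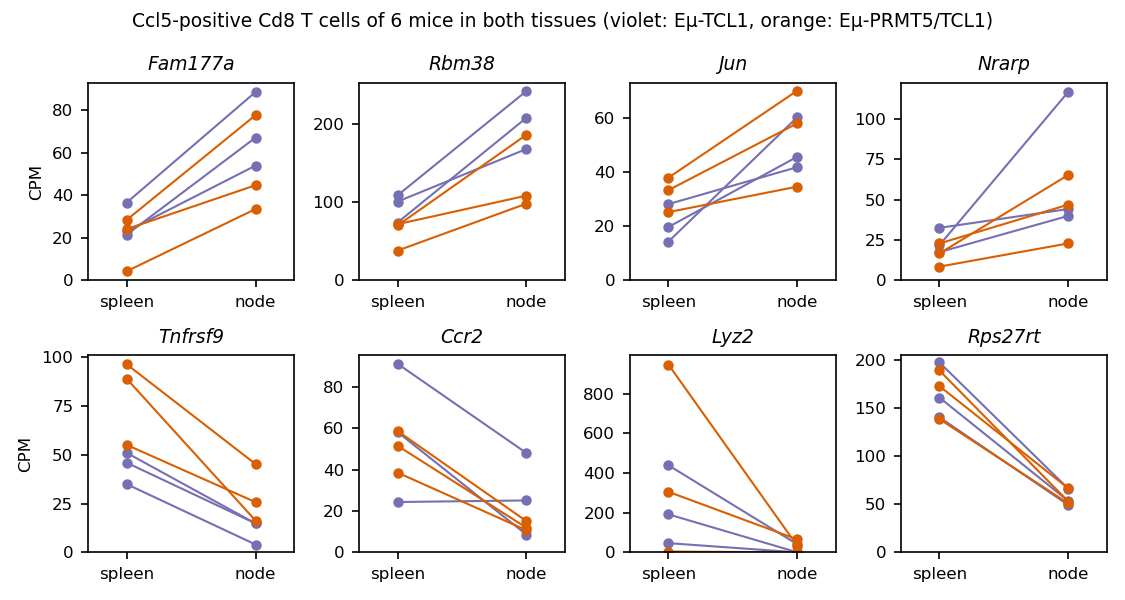
Level in Ccl5-positive cells (y axis, CPM) of 8 genes in spleen and node (x axis), with a line for each of the 6 mice (violet Eµ-TCL1, orange Eµ-PRMT5/TCL1). Fam177a, Rbm38, Jun and Nrarp are higher in the node of all 6, and Tnfrsf9, Lyz2 and Rps27rt lower, while Ccr2 is lower in 5.

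The leading T-cell receptor beta gene of Ccl5-positive cells covered 10.6 to 94.8% of the assigned cells by library, and over 50% in 4 mice. A Trbv UMI was found in 66.9 to 100% of these cells per library, and cells with a single leading Trbv gene were assigned to it. The labels and the study's methods give a 3′ kit, whereas V segments lie far from the 3′ end of these transcripts, and how the reads reached them is not given in the sources used here. Shares are therefore of the counts as deposited. Trbv12-1 and Trbv12-2, which lead in several libraries, lie close together on chromosome 6. Their GENCODE vM21 (GRCm38) transcripts are identical at 340 of 385 end-aligned positions (88.3%). Their last 120 bases, which border the junction, differ at the 9 bases in capitals (chr6:41113948-41114067 and chr6:41119245-41119364, plus strand). They are shown because the split of reads between this pair was not tested.

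Trbv12-1: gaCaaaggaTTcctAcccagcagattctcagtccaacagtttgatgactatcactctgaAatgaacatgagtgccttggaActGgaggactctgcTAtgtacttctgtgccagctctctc
Trbv12-2: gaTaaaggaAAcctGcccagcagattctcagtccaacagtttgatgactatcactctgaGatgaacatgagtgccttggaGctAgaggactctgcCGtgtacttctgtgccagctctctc

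In Eµ-PRMT5 spleen 5, Trbv12-1 was assigned to 94.8% of 3738 cells (Wilson 95% interval 94.1 to 95.5%, which covers counting error only). Among the assigned cells there 3 Trbv genes were seen, with Trbv4 next at 5.14%. Of 1322 cells there with a Trbv4 UMI, 91.3% also carried Trbv12-1. In Eµ-TCL1 spleen 3, Trbv13-2 was assigned to 81.8% (79.7 to 83.7%), and in Eµ-PRMT5 spleen 2, Trbv31 to 54.8% (48.6 to 60.8%). A single V gene thus covered over 50% of the assigned cells in these 3 mice and in the mouse of Eµ-TCL1 spleen 2, described next. The leading gene of Eµ-PRMT5 spleens 1, 3 and 4 covered 10.6% (Trbv12-2), 14.7% (Trbv12-1) and 16.7% (Trbv1, 7.87 to 31.9% with 36 cells).

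The same Trbv gene led in spleen and node in 5 of 7 mice. Trbv16 covered 67.0% (63.2 to 70.6%) in Eµ-TCL1 spleen 2 and 54.8% (52.2 to 57.5%) in the node of that mouse, against a median of 7.47% and a maximum of 41.9% in libraries of the other mice. Trbv19 covered 26.5% (23.7 to 29.4%) in Eµ-TCL1 spleen 4 and 35.4% (31.3 to 39.7%) in the node, against a median of 3.74% and a maximum of 8.33% elsewhere. Trbv19 was thus above all other mice in both tissues, and Trbv16 had a further mouse with a large share. Trbv16 covered 41.9% (28.4 to 56.7%) in Eµ-PRMT5/TCL1 spleen 1 and 24.7% (21.6 to 28.1%) in the node of its mouse. Trbv12-2 covered 28.3% and 29% in the mouse of Eµ-PRMT5/TCL1 spleen 3, against a median of 8.85% and a maximum of 16.1% elsewhere. Its shares of 15.6% and 15.1% in the mouse of spleen 2 lay within the range of other mice, which reached 29%. In the mouse of Eµ-TCL1 spleen 1 the tissues differed, with Trbv1 at 37.0% (33.1 to 41.2%) in the spleen and 10.6% in the node, where Trbv13-2 led with 13.8%. Trbv1 had a median of 1.66% and a maximum of 16.7% in libraries of the other mice. In the mouse of Eµ-PRMT5/TCL1 spleen 4 the node had 14 assigned cells.

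**Figure D5:**
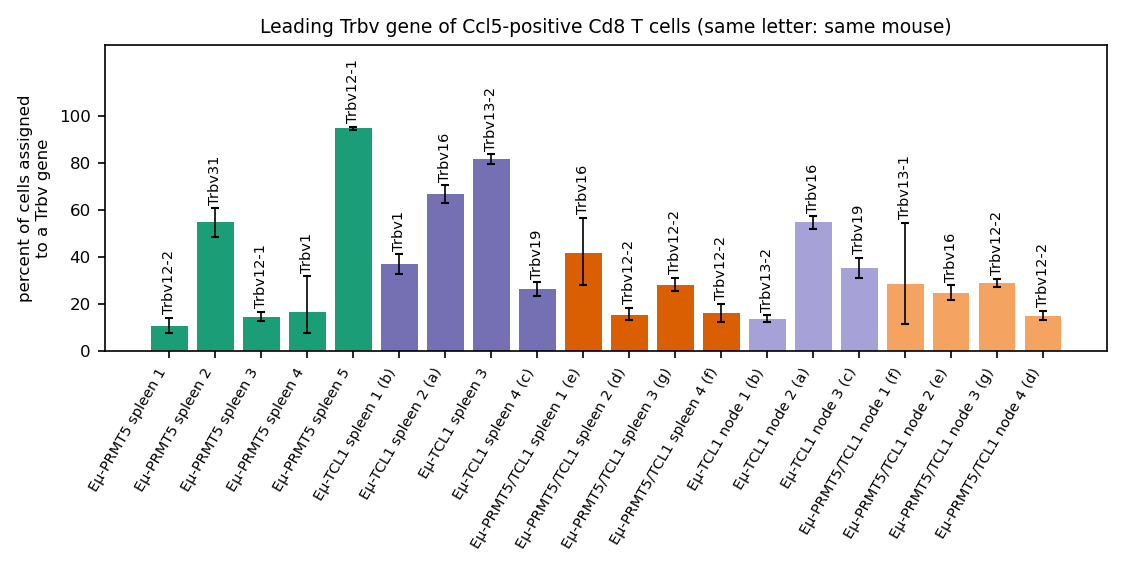
Percent of Trbv-assigned Ccl5-positive cells that carry the library's leading Trbv gene (y axis, gene named at each bar, error bars the Wilson 95% interval) in each library (x axis). Letters pair the tissues of a mouse, and the highest bars are Trbv12-1 in Eµ-PRMT5 spleen 5 (94.8%) and Trbv13-2 in Eµ-TCL1 spleen 3 (81.8%).

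The alpha chain gene most frequent among cells with the leading Trbv gene was less frequent among the other cells in several of these mice, with a smaller or opposite difference in the 2 libraries with the highest Trbv shares. The choice of a leading Trbv gene did not use alpha chains, but the Trav gene was chosen as the most frequent in those same cells, so part of each excess within a library is built in and the shares are given as a description. In Eµ-PRMT5 spleen 2, 69.7% of the 119 Trbv31 cells with an assigned Trav gene carried Trav13-2, against 0 of 80 other cells, which allows a share of up to 3.75%. In Eµ-TCL1 spleen 1, Trav8d-2 was in 73.9% of Trbv1 cells and 1.09% of the others. Trav10 was in 70.1% of Trbv19 cells of Eµ-TCL1 spleen 4 and 0.912% of the others, and in 76.5% against 4.07% in the node. Trav14-2 accompanied Trbv12-2 in 54.1% against 1.29% in Eµ-PRMT5/TCL1 spleen 2 and in 39.3% against 3.12% in the node. A beta and alpha pair was thus seen in both tissues of the same mouse. For Trbv16 with Trav13-1 in the mouse of Eµ-TCL1 spleen 2 the values were 83.6% against 23.1% in the spleen and 83.0% against 17.3% in the node. In the mouse of Eµ-PRMT5/TCL1 spleen 3 the leading Trav gene among Trbv12-2 cells was Trav13-1 in the spleen (44.1%) and Trav6-5 in the node (44.4%). In Eµ-TCL1 spleen 3, Trav12-2 was in 42.4% of Trbv13-2 cells and 48.6% of the others, and in Eµ-PRMT5 spleen 5, Trav13-1 was in 72.2% of Trbv12-1 cells and 60.7% of the others. Trav genes come in near-identical families, so single assignments are uncertain. The constant gene gave a separate reading, as 0 of 2334 cells of Eµ-PRMT5 spleen 5 with UMIs of a single Trbc gene had Trbc1, which allows up to 0.129%, whereas the libraries with over 22 such cells elsewhere ranged from 1.19 to 33.3%.

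The most frequent Trbv gene of a class, which was not always the same gene in both, covered more of the Ccl5-positive than of the Ccl5-low cells when cells were counted. With equal numbers of cells drawn from both classes in 8 libraries of 7 mice and averaged over repeated draws, the share of the most frequent Trbv gene in the class was higher in Ccl5-positive cells in 8 of 8, by 7.75 points on average (SD 8.51, exact sign-flip p = 0.0078125, the smallest possible). Averaged by mouse the difference was 6.53 points (SD 7.89, 7 of 7 mice, exact p = 0.015625, the smallest possible). In Eµ-PRMT5/TCL1 spleen 1 the shares were 41.3% and 20%, and in Eµ-PRMT5/TCL1 node 3 they were 29.7% and 10.2%. In Eµ-PRMT5 spleen 5 they were 94.6% and 92.0%. The difference was 21.3 and 11.3 points in Eµ-PRMT5/TCL1 spleen 1 and node 2, from the same mouse, and 19.5 points in node 3. In the other libraries it was 0.520 to 3.69 points. Counting the UMIs of the drawn cells in place of the cells gave 7.20 points, higher in 6 of 8 (exact p = 0.0390625). With the UMIs of all cells and no equal draw the difference was 5.39 points, higher in 5 of 8 (exact p = 0.172).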

How the data were processed

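Unsorted live cells of spleen and lymph node were run on a droplet 3′ version of single-cell RNA-seq, and the UMI counts per gene and cell for 31053 features were deposited by the authors as filtered matrices without further normalization. Per the labels they used Cell Ranger 2.0.1, Seurat 2.2.1 and GRCm38, while the matrix headers name version 3.1.0. Here cells were selected by the counts given in the report, UMIs were summed by library and class, and sums of at least 20 cells were fitted with edgeR 4.0.16 (TMM, quasi-likelihood, R 4.3.3), with DESeq2 1.42.0 as an alternative. Adjusted p is Benjamini-Hochberg over all genes tested, of which the 10 selecting and 13 mitochondrial genes were left out. A fit over all 20 libraries had been planned for the groups, but Eµ-PRMT5/TCL1 node 1 held 16 cells, so 19 entered. Shares used exact permutation tests (Python 3.11.15, scipy 1.17.1). No doublet caller was run, and an alternative left out cells above 2 times the library's median UMIs. The members, gene lists and tests were chosen with earlier results of these data known. Named genes were chosen among those passing with a mean of at least 50 CPM. Between classes they were the 15 with the largest rise and 10 with the largest fall that had the same direction in 90% of pairs. Between groups or tissues they were the 8 largest each way, without a rule on direction. Where none passed, the 3 with the lowest p were named, and members of the lists were added. Selecting, immunoglobulin, haemoglobin, sex-linked and unnamed Gm or Rik genes were not named by these rules. The edgeR step was tested on simulated data drawn from the real means. The simulation used a single fixed spread for all genes and no differences between mice, and changed only genes with a mean count above 20. Its recovery therefore need not hold for genes of wider spread or lower counts. At the design of the Ccl5-low comparison it recovered 76% of 2-fold and 89% of 4-fold changes over 7902 genes, and at that of Eµ-PRMT5 against Eµ-TCL1 spleens 65% and 100% over 10304 genes. Same-numbered libraries of groups compared between genotypes came from different mice, and the spleen and node of a mouse were joined by the mouse in the labels. Some genes of the lists are not reported here.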

Additional observations from a re-analysis of the deposited data

Results flagged for a closer look

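Libraries were compared with the others of their group for 128 combinations of gene or share and group, and 21 stood apart by a test of the gap to the nearest library at the 95% level. Chance alone flags about 1 in 20 groups. In Eµ-PRMT5 spleen 4, with 40 Ccl5-positive cells, 12 genes stood apart. Effector genes were high there, with Gzmb at 4015 CPM, Nkg7 at 2116, Gzmk at 618.6, Prf1 at 224.6, Klrg1 at 122.1, Gzma at 110.3 and Tnfrsf9 at 283.7, and Lef1 was low at 23.64. Transcripts of other cells were high in the same library, with Lyz2 at 693.5, Prtn3 at 606.8, Ifitm3 at 397.9 and Tyrobp at 216.7, and their part in the effector values was not tested. Eµ-PRMT5/TCL1 node 1 stood apart in the share of Ccl5-positive cells among Cd8 T cells, at 32%. In Eµ-TCL1 spleens, Il2rb stood apart in spleen 2 (538.6 CPM), Nkg7 and Gzmk in spleen 1 (430.2 and 58.38) and Klrd1 in spleen 4 (335.6). In Eµ-PRMT5/TCL1 spleens, Rbm38 (329.9) and Saraf (1139) stood apart in spleen 4 and Hist1h2ap (35.75) and Prtn3 (119.2) in spleen 2.

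In edgeR's test of whether the difference between Ccl5-positive and Ccl5-low cells depended on the group, 2 haemoglobin genes among 9347 tested (0.0214%) were called, but the Eµ-TCL1 arm was 1 library, so no difference between groups is shown. Hbb-bs and Hbb-bt had interaction log2 values of 13.87 and 11.80 for Eµ-PRMT5 against Eµ-TCL1 spleens and of 10.34 and 15.39 with Eµ-PRMT5/TCL1 set against the same Eµ-TCL1 spleens. Both rest on the same Eµ-TCL1 spleen, the single one with at least 20 Ccl5-low cells, which was assumed to vary like the other groups. Hbb-bs was at 0 in 10 and Hbb-bt in 11 of the 12 Ccl5-low libraries, so these fitted values depend on the prior count and are no bound. The other 3 interactions had 0 calls in edgeR, with 360, 364 and 461 genes at an unadjusted p under 0.05.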

How the results depend on the processing

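Gene counts moved with the tool, filters and single libraries, and the cause was not tested beyond the smaller number of cells or genes that some alternatives leave. DESeq2 gave 19 (Eµ-PRMT5 against Eµ-TCL1 spleens), 11 (Eµ-PRMT5/TCL1 against Eµ-PRMT5 spleens), 24 (nodes by genotype), 310 (node against spleen), 1 (tissue by genotype) and 1 (Ccl5 class by group, Eµ-PRMT5/TCL1 against Eµ-TCL1 spleens). Without a low-count filter the Ccl5-low comparison gave 837, Eµ-PRMT5/TCL1 against Eµ-PRMT5 4, tissue 306, tissue by genotype 60 and class by group 27, 16, 33, 5 and 28. With at least 50 cells the values were 3, tissue 24 and class by group 2. Thinned to 1500 UMIs they were 1822 against PD-1-positive cells, 2, tissue 36 and class by group 7, 2 and 8. The UMI limit gave tissue 12 and class by group 1 and 3, and turned Lyz2 to -0.67. Cd79 at 0 gave tissue 33. Sex as a covariate gave 13 (4 of the 6 shared) and, for the nodes, 160. Fitting only the groups compared gave 1 (Eµ-PRMT5 against Eµ-TCL1 spleens) and 0 (Eµ-PRMT5/TCL1 against Eµ-PRMT5, where Grb7 fell under the filter). With the replicate block the spleen comparisons gave 9, 0 and 2 and the nodes 0, and Hspa1a and Jun still passed, while same-numbered libraries correlated at -0.514 to 0.284, so the numbers do not pair them. Without the mouse block tissue gave 13, and without the library block the Ccl5-low comparison gave 108. With both Eµ-PRMT5 spleens 4 and 5 left out, Eµ-PRMT5/TCL1 against Eµ-PRMT5 gave 3. Trbv UMIs of all cells without an equal draw, added after seeing the data, gave 5.39 points. Leaving out single libraries gave 223 to 633 (Ccl5-low), 2836 to 3720 (PD-1-positive), 1 to 7, 1 to 3 and 0 to 0 (spleens), 0 to 63 (nodes), 11 to 188 (tissue, with 22 and 24 among them), 0 to 1367 (tissue by genotype), and 0 to 3, 2 to 50, 0 to 19, 0 to 0 and 0 to 24 (class by group). For shares of Cd8 T cells it gave -14.9 to -4.51, -31.8 to -22.1 and -21.8 to -12.2 (spleens), -24.5 to -3.77 (nodes) and 7.08 to 18 (tissue), and for shares of kept cells -1.90 to 16.4, -7.22 to 0.578 (0.380 without Eµ-PRMT5/TCL1 spleen 1), -20.1 to -1.84, -30.1 to -4.22 and 11.6 to 21.7. The leading Trbv difference ran from 5.82 to 8.78. Of named-gene refits, 537 of 548 kept their call against Ccl5-low cells, 650 of 650 against PD-1-positive cells, 25 of 44 between Eµ-PRMT5 and Eµ-TCL1 spleens and 166 of 254 between tissues. On simulated data of fixed spread 65% of 2-fold changes were recovered between Eµ-PRMT5 and Eµ-TCL1 spleens, so such and smaller changes could be missed. In genes of wider spread or lower counts larger changes could be missed too.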

Other observations

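In PD-1-positive Cd8 T cells, which were not part of the Ccl5-positive cells, the leading Trbv gene was that of the Ccl5-positive cells in 8 of 20 libraries, in 2 of them tied with another gene. In Eµ-PRMT5 spleen 5 Trbv12-1 led both classes, with 15 of 20 assigned PD-1-positive cells and 53.0% of their Trbv UMIs. In that library 35.5% of B cells had a Ccl5 UMI, and the part of transcripts from other cells was not tested. In Eµ-TCL1 spleen 3 Trbv13-2 led both, with 64.2% of the PD-1-positive cells. In Eµ-TCL1 spleen 1 the PD-1-positive cells were led by Trbv12-2 (41.0%) and the Ccl5-positive cells by Trbv1 (37.0%). In Eµ-PRMT5/TCL1 spleen 3 they were led by Trbv13-1 (28.6%) and Trbv12-2 (28.3%) in that order.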
